A study of Mus musculus with 9 samples.

Results

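The nuclear genes of oxidative phosphorylation were examined in tumor-infiltrating CD8+ T cells. Members were all protein coding genes whose mouse symbol begins with Nduf followed by a, b, c, s or v, with Uqcr, with Cox and a digit from 4 to 8, or with Atp5, together with Sdha, Sdhb, Sdhc, Sdhd, Cyc1 and Cycs. The rule uses names alone and no measured value. It found 98 members among the 32976 genes of the count tables. Complex I held 39 of them, complex II 4, complex III 9, complex IV 19 and complex V 18. The other members were 8 assembly factors of complex I, whose symbols begin with Ndufaf, and the electron carrier cytochrome c, encoded by Cycs. A further 2 annotated genes that match the rule had no row and were not analysed here.

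The cells came from CT26.WT tumors, a mouse colorectal carcinoma line implanted under the skin of BALB/c mice, and their genotype was wildtype. All mice had received the anti-PD-1 antibody RMP1-14 on days 3, 6 and 9, so no untreated group was compared. GSW11 is a peptide of an endogenous retroviral envelope protein that CT26 cells present, and a tetramer carrying it was used to sort CD8+ CD44+ T cells that bound it strongly (high avidity) or weakly (low avidity). TetHighProg comprised high avidity cells from progressing tumors (replicates 1, 2 and 5), TetLowReg low avidity cells from regressing tumors (replicates 6, 7 and 8) and TetLowProg low avidity cells from progressing tumors (replicates 9, 10 and 12). High avidity cells from regressing tumors were not among the groups, so avidity and tumor course can each be compared in 1 pair of groups only. Cells came from 3 progressing and 3 regressing tumors, so TetHighProg and TetLowProg share the progressing tumors. The labels do not tie a library to a tumor, so these groups were compared as if independent, and p-values measure the spread between these libraries, which may be partly technical. Full-length cDNA was amplified for 22 cycles before sequencing. A library is bulk RNA, in which fewer cells of a type and less RNA per cell cannot be told apart.

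Oxidative phosphorylation runs in the inner mitochondrial membrane. Complexes I and II pass electrons from NADH and succinate to coenzyme Q, complex III passes them on to cytochrome c, and complex IV passes them to oxygen. Complexes I, III and IV pump protons, and complex V, the ATP synthase, uses the proton gradient to make ATP. Most subunits are encoded in the nucleus and a few in mitochondrial DNA, while complex II is wholly nuclear. Long-lived and memory CD8+ T cells are known to rely on this pathway, and exhausted T cells in tumors are known for impaired mitochondrial function.

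Promoters of nuclear oxidative phosphorylation genes are known to carry elements of NRF1, of the ETS factor GABPA, of YY1 and of the nuclear receptor ERRα. Windows of 300 bases, from 250 before to 50 after the annotated start, were available from RefSeq (build GRCm38.p6) for 76 of the 98 members. Exact matches on either strand were sought for GCGCATGCG (NRF1), CCGGAAG (ETS), AAGATGGCG (YY1) and TCAAGGTCA (ERRα). The NRF1 letters were present for 11 members (14.5%, against 1.95% of all 27025 genes with a window), the ETS letters for 18 (23.7% against 9.93%), the YY1 letters for 8 (10.5% against 1.64%) and the ERRα letters for 2 (2.63% against 0.466%). At least 1 of the elements was present for 32 members (42.1% against 13.1%), among them 8 of 14 in complex V, 11 of 33 in complex I and 3 of 13 in complex IV. The NRF1 letters and their reverse complement overlap by all but 1 base, so a site can match on both strands. The 5 windows below are shown because their genes recur in the results. Uqcrc1 took the most counts, Cycs is the single carrier between complexes III and IV, Cox6a1 and Sdha differed without overlap between groups, and Cox7c was the cytochrome c oxidase subunit found most widely. Capitals mark matched letters, bases are counted from 1 at the 5′ end, and the annotated start lies at base 251.
Uqcrc1, chr9:108936398-108936697, plus strand: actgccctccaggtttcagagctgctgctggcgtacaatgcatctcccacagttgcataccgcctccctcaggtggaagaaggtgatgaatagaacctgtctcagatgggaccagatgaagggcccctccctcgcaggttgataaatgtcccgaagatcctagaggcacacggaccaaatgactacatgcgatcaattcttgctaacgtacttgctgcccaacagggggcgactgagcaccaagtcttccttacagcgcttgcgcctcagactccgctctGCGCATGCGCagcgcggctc
Cycs, chr6:50566520-50566819, minus strand: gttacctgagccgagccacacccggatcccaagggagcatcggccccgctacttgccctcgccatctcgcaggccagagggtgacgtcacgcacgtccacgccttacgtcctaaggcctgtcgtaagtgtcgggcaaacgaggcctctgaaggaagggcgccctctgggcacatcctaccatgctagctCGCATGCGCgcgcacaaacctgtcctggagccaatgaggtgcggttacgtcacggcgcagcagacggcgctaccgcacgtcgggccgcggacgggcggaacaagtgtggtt
Cox6a1, chr5:115348909-115349208, minus strand: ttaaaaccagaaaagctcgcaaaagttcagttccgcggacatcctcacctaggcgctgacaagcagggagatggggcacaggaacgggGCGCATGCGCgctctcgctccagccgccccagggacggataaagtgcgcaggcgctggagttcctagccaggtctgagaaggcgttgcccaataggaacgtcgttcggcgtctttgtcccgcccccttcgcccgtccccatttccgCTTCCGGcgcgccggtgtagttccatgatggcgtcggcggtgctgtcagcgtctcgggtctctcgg
Sdha, chr13:74350191-74350490, minus strand: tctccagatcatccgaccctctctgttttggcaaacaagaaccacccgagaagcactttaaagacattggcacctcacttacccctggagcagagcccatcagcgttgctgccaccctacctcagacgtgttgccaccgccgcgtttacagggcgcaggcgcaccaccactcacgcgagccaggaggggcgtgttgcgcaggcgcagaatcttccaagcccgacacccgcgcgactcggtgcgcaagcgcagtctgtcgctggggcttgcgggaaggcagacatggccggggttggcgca
Cox7c, chr13:86046746-86047045, minus strand: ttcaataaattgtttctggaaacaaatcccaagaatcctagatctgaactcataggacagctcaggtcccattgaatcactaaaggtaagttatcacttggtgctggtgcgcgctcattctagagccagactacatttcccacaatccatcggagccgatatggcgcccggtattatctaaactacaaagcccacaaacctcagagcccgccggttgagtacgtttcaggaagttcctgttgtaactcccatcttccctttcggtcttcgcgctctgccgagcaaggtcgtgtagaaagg
The Uqcrc1 window held the NRF1 letters at bases 281 to 290, after the start, on both strands. The Cycs window held them at bases 190 to 198. The Cox6a1 window held them at bases 89 to 98 on both strands and the ETS letters at bases 235 to 241. No match was found in the Sdha and Cox7c windows. A match is a run of letters and does not show that a factor bound there.

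Libraries differed strongly in how many genes they held, whatever their group. Total gene counts ranged from 16405306 to 36429515, and genes with 10 counts or more, here called found, from 599 to 8071. In 5 libraries over 2000 genes were found (TetHighProg 5, TetLowReg 7 and 8, TetLowProg 9 and 12), and in the other 4, at most 1298 (TetHighProg 1 and 2, TetLowReg 6, TetLowProg 10). The former are called gene-rich and the latter gene-poor. TetHighProg thus held 1 gene-rich library and each low avidity group 2, so gene recovery and avidity cannot be told apart. That library, TetHighProg 5, held 3181 found genes, against 6443 to 8071 in the other gene-rich libraries. Of 12 T cell marker genes, 10 to 12 were found in the gene-rich libraries and 3 to 7 in the gene-poor ones, and Cd8a was at 0 in 3 of the gene-poor libraries. Their share of gene counts had another order, being lowest in the gene-rich TetLowReg 7 and 8 (0.115% and 0.180%) and highest in the gene-poor TetLowReg 6 (0.999%). Markers of macrophages and dendritic cells (10 genes) took 5.59% of gene counts in TetLowReg 7, 4.04% in TetLowReg 8 and 6.10% in TetLowProg 12, against at most 0.154% in the other 6 libraries, and in those 3 they exceeded the T cell markers. B cell markers (4 genes) took 0.0558%, 0.0686% and 0.122% in the same 3 libraries, and none was found in the other 6. CD4 T cell, neutrophil and erythroid markers took at most 0.00696% of counts in any library, and markers of CT26 tumor cells and stroma at most 0.0387%.

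More oxidative phosphorylation genes were found in each gene-rich library than in any gene-poor one, libraries that were themselves divided by the number of genes found. Among the gene-rich libraries TetHighProg 5 held the fewest. In TetHighProg 21, 11 and 39 of 98 members were found (replicates 1, 2 and 5), in TetLowReg 10, 75 and 70 (6, 7 and 8), and in TetLowProg 86, 13 and 75 (9, 10 and 12). The groups overlapped. Means were 23.7 ± 14.2 (SD, n = 3) for TetHighProg, 51.7 ± 36.2 for TetLowReg and 58.0 ± 39.4 for TetLowProg. All protein coding genes were found less often than members in each library, from 2.65% against 11.2% in TetHighProg 2 to 35.4% against 87.8% in TetLowProg 9, but that background includes genes of other tissues. Genes of the mitochondrial ribosome, which also work in mitochondria but not in the respiratory chain, showed the same division, with 6, 3 and 17 of 77 found in TetHighProg, 4, 39 and 40 in TetLowReg and 66, 7 and 43 in TetLowProg. The gene-rich TetLowProg 9, in which macrophage and dendritic cell markers took 0.0101% of counts, held the most members, whereas 3 other gene-rich libraries held those markers at a few percent. The part of those cells in the members' counts was not tested.

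**Figure D1:**
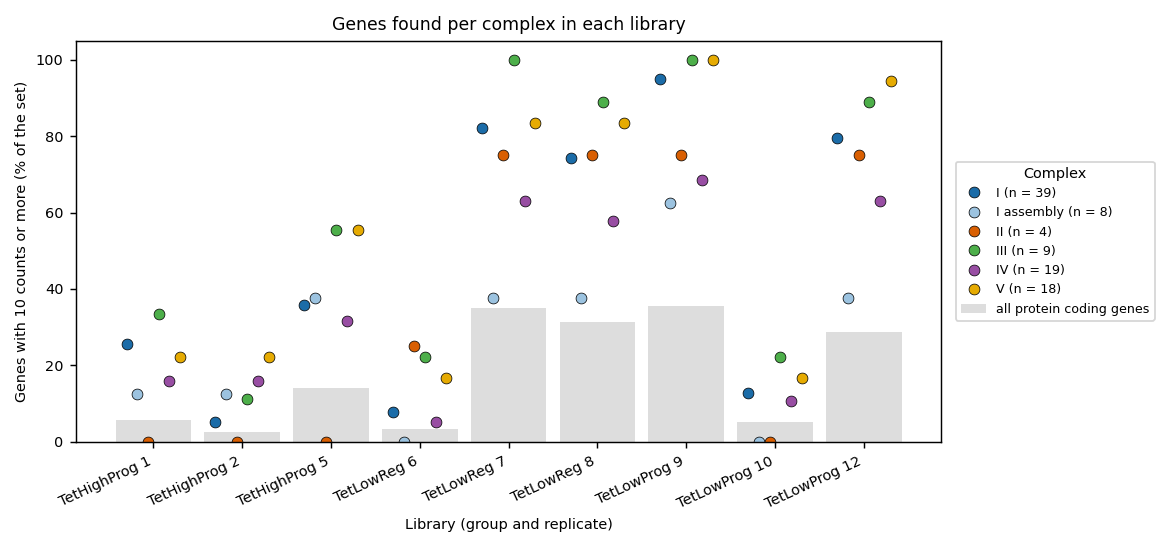
Share of genes found (10 counts or more, in % of each complex, points) in each of the 9 libraries, with the share over all protein coding genes as grey bars. The gene-rich libraries TetLowReg 7 and 8 and TetLowProg 9 and 12 stand highest, while complex II is at 0% in all TetHighProg libraries and in TetLowProg 10.

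Nearly as many counts were 0 as were above 0. Of the 882 pairs of a member and a library, 439 had 0 counts, 43 had 1 to 9 and 400 had 10 or more, and 274 of the latter exceeded 1000 counts. No member was found in all 9 libraries, although 180 genes of the tables were. Cox7c, Atp5mc1, Atp5mk and Atp5pf were found in 8 libraries each, Ndufa12, Ndufb11, Uqcrc1 and Cox7a2 in 7, and 7 members in none. In TetHighProg 4 members were found in all 3 libraries (Uqcrc1, Cox7c, Atp5mc1 and Atp5if1), in TetLowReg 9 and in TetLowProg 13. Of the 98 members, 39 were at 0 in every TetHighProg library, 10 in every TetLowReg library and 9 in every TetLowProg library. In the gene-poor libraries 39 members were found at least once, 27 of them in a single library. Any pair of gene-poor libraries shared 2 to 6 found members. TetHighProg 1 and TetHighProg 2, of the same group, shared 5, which was 23.8% of the members found in the former and 45.5% of those in the latter. Over the 98 genes, the number of gene-poor libraries in which a member was found had a Spearman correlation of 0.40 with its mean level per kilobase in the gene-rich libraries and of 0.017 with transcript length. The genes share these libraries and are not independent, and the values are descriptive. Where a member was found in a gene-poor library its counts were high, with medians over found members from 7679 to 28205, against 986 to 3197 in the gene-rich libraries. Per 1000000 gene counts these medians were 240 to 1114 and 44.0 to 141. Over all found protein coding genes they showed the same division, 202 to 416 and 9.22 to 83.0.

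**Figure D2:**
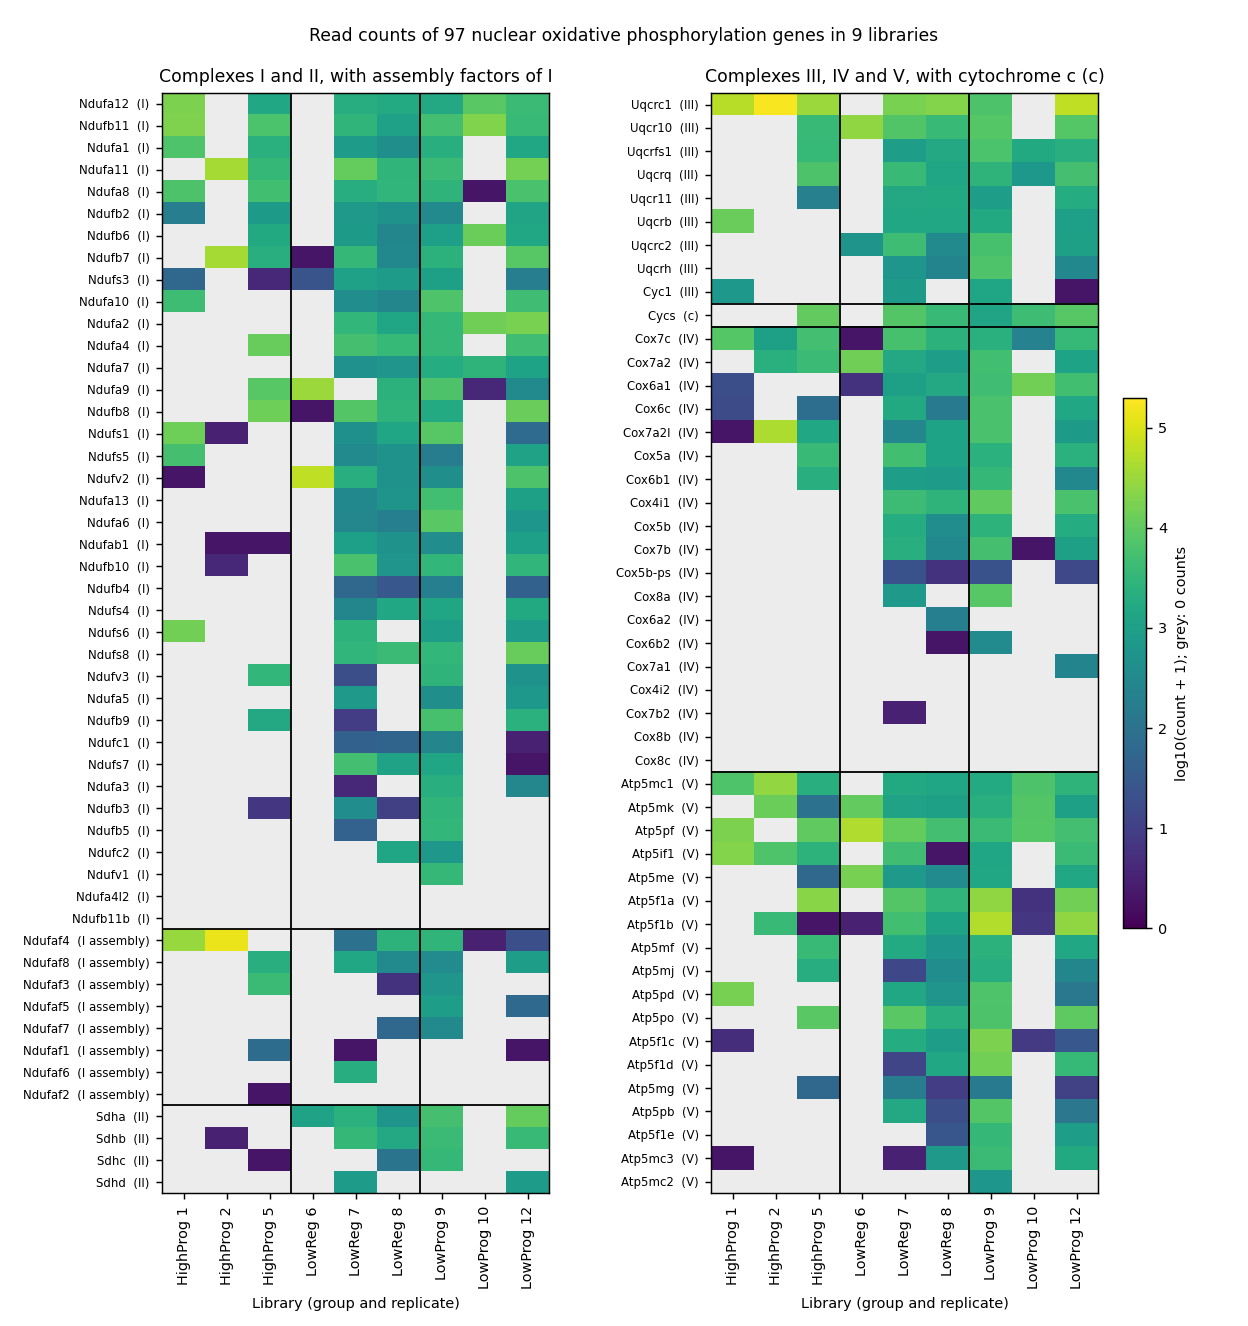
Counts of 97 members (rows, log10 of count + 1, grey for 0) in each library (columns, group and replicate), by complex. Columns HighProg 1 and 2, LowReg 6 and LowProg 10 are mostly grey with a few bright cells, and which cells are bright differs between them.

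Although few members were found in the gene-poor libraries, the share of counts that the members took together overlapped between groups. The 3 TetHighProg libraries gave the members 0.767%, 1.94% and 0.861% of gene counts, the TetLowReg libraries 0.958%, 0.572% and 0.652%, and the TetLowProg libraries 1.03%, 0.408% and 1.15%. TetHighProg 2 was the highest and TetLowProg 10 the lowest, and the groups overlapped. These shares depend on the mitochondrially encoded genes in the total, which took 42.2% of gene counts in TetLowReg 7. With these left out, the TetLowReg values were 0.968%, 0.99% and 0.748%, and the groups overlapped as well. A few genes carried the share in gene-poor libraries. The 3 largest members held 73.1% of the members' counts in TetHighProg 2, 67.2% in TetLowReg 6, 47.3% in TetLowProg 10 and 40.9% in TetHighProg 1, against 20.5% to 36.4% in the gene-rich libraries. Uqcrc1 was the largest member in 6 libraries, Ndufv2 in TetLowReg 6, Atp5f1b in TetLowProg 9 and Ndufb11 in TetLowProg 10. The largest member held between 8.10% (TetLowReg 7) and 35.6% (TetHighProg 2) of the members' counts.

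**Figure D3:**
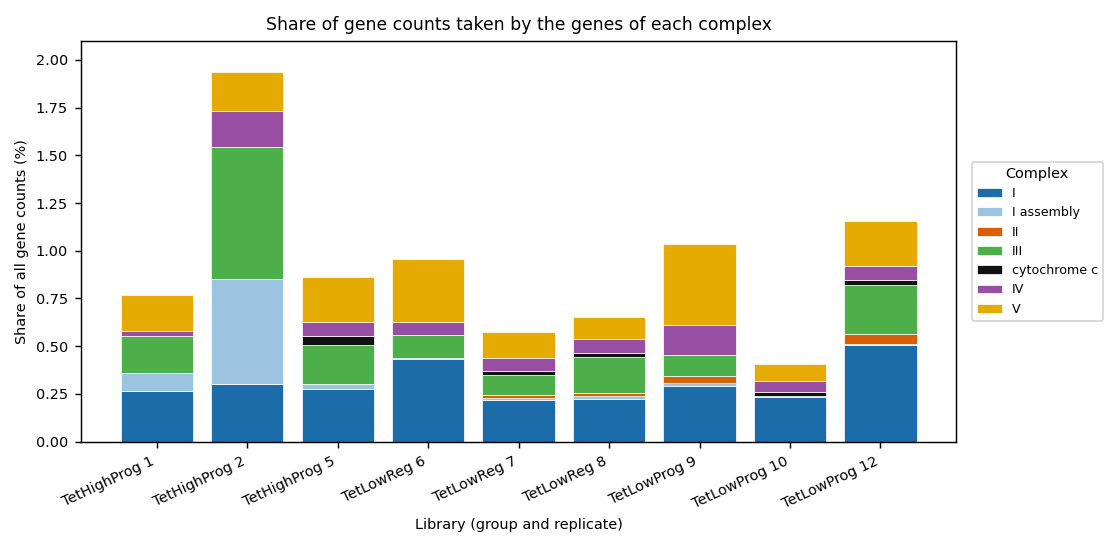
Share of all gene counts (%, stacked bars) taken by the members of each complex in each library. The tall bar of TetHighProg 2 (1.94%) consists largely of complex III and an assembly factor, while TetLowProg 9 and 12 hold visible complex II segments.

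No member passed the test in any comparison. The quasi-likelihood test of edgeR covered 5813 genes that passed the filter on low counts, 75 members among them. A call required a log2 fold change beyond 2 in either direction with a p under 0.05 after Benjamini-Hochberg adjustment over all genes tested. By that rule 0 members were called in each comparison, as were 0% of all genes tested. For TetLowReg against TetHighProg the smallest adjusted p of a member was 0.233. For TetLowProg against TetHighProg it was 0.193, and for TetLowProg against TetLowReg 1.0. The common dispersion of the fit was 8.12, and even a pooled ratio of 323 (Atp5me, described with complex V) had an adjusted p of 0.329 in edgeR. A member that passed the filter only through counts in the group where it was high had to differ, so the counts below are read only beside the background over all genes.

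Other tools called many members in the comparisons with TetHighProg, DESeq2 at about the rate of all genes and limma-voom above it. For TetLowReg against TetHighProg, DESeq2 with default size factors called 21 of 66 members (31.8%), all higher in TetLowReg, beside 32.8% of all genes. With poscounts size factors it called 12 of 49 (24.5%), 11 higher and 1 lower, beside 24.0%, and limma-voom with quality weights called 40 of 75 (53.3%), 39 higher and 1 lower, beside 41.5%. At an unadjusted edgeR p under 0.05 there were 12 members (16%), all higher, beside 19.5%. Over all genes most calls were higher as well, 1767 of 1809 with DESeq2 and 966 of 1016 with poscounts factors. With limma-voom 2399 of 2411 were higher, and at the unadjusted edgeR p 1105 of 1135. For TetLowProg against TetHighProg, DESeq2 called 26 of 66 (39.4%) beside 40.7%, or 9 of 49 (18.4%) beside 20.2% with poscounts factors, limma-voom 44 of 75 (58.7%) beside 49.9%, and the unadjusted edgeR p 17 of 75 (22.7%) beside 25.4%. Both comparisons share the TetHighProg libraries. For TetLowProg against TetLowReg no tool called a member, beside 1.22% of all genes with DESeq2, 0.396% with its poscounts factors and 0% with limma-voom, and 0 members had an unadjusted edgeR p under 0.05, beside 0.929%.

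How the fitted differences of members stood beside those of all genes varied with the genes and libraries that entered the fit. The median log2 fold change of the 75 tested members was 1.26 for TetLowReg against TetHighProg, beside 3.52 over all tested genes, and 50 of the 75 were above 0. For TetLowProg against TetHighProg it was 0.93 beside 4.27, with 47 above 0, and for TetLowProg against TetLowReg −0.19 beside 0.35, with 31 above 0. Of all 5813 tested genes, 4225, 4271 and 3226 were above 0, in the same order. Ratios of pooled counts per total were taken in place of fitted values, with 3 counts as the limit where a gene was at 0 in a whole group. The median log2 ratios of the tested members were then 1.26, 1.32 and 0.68, beside 3.62, 5.23 and 1.30. Without TetHighProg 5, the only gene-rich library of its group, the median over members was 7.22 for TetLowReg against TetHighProg (5.80 over all genes) and 7.87 for TetLowProg against TetHighProg (6.85 over all genes). In the gene-rich libraries alone the medians were 3.88 beside 3.86 and 5.56 beside 3.17. With no filter on low counts they were 1.04 beside 1.31 and 1.96 beside 0.18, and with 10 counts or more required in every library of a group 0.77 beside 0.63 and 0.82 beside 1.05.

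**Figure D4:**
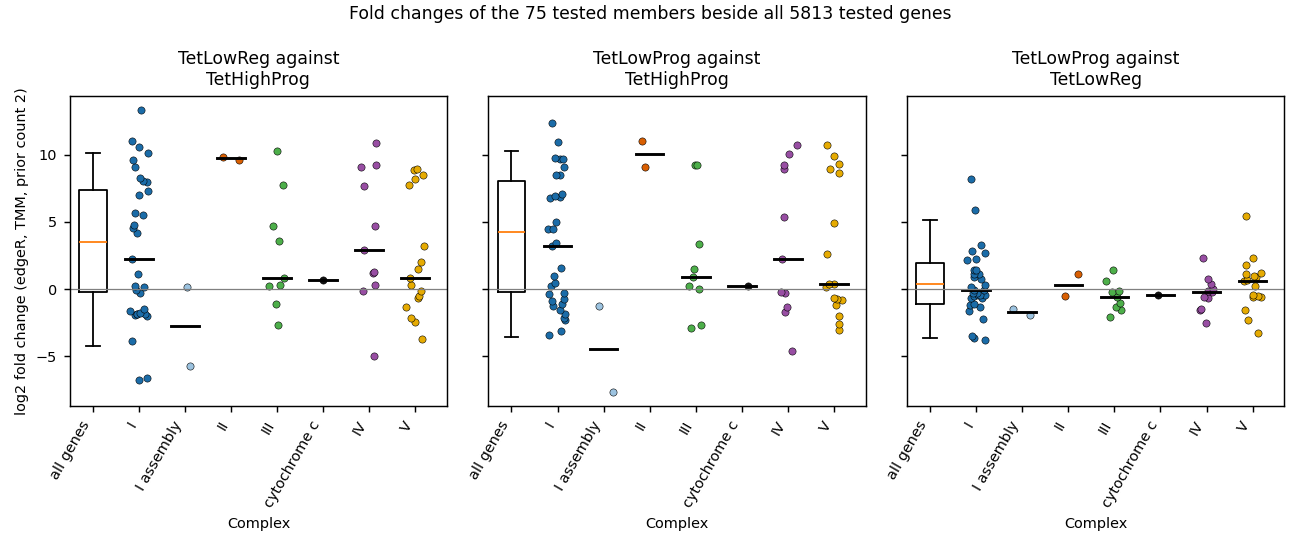
Fitted log2 fold changes (edgeR, TMM factors, prior count 2) of tested members by complex (points, line at the median) beside all 5813 tested genes (box from the 25th to the 75th percentile with the median, whiskers at the 5th and 95th). In the comparisons with TetHighProg the medians over all tested members, 1.26 and 0.93, lie under those of all genes, 3.52 and 4.27, while complex II, with 2 tested genes, has the highest median of the complexes.

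Few members had libraries that did not overlap between groups. For TetLowReg against TetHighProg there were 7 of 75 (9.33%, beside 5.80% of all genes), for TetLowProg against TetHighProg 5 (6.67%, beside 7.17%) and for TetLowProg against TetLowReg 5 (6.67%, beside 3.42%). For each of them the two-sided exact permutation test over libraries gave p = 0.1, the smallest that 3 against 3 allows. They are described with their complexes. With mitochondrially encoded genes left out of the total, the 7 and 5 members of the comparisons with TetHighProg remained, but for TetLowProg against TetLowReg there were 2 (beside 2.92% of all genes), Cox6a1, which remained, and Atp5pf, now lower in TetLowProg.

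Complex I carries electrons from NADH through its flavoprotein subunits Ndufv1 and Ndufv2 and the iron-sulfur subunits of the Ndufs series. Between 2 and 14 of its 39 members were found in TetHighProg, 3, 32 and 29 in TetLowReg and 37, 5 and 31 in TetLowProg. The complex took 0.267%, 0.303% and 0.276% of gene counts in TetHighProg, 0.433%, 0.217% and 0.222% in TetLowReg and 0.293%, 0.232% and 0.508% in TetLowProg. These shares overlapped between all groups.

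Of 6 core genes (Ndufs1, Ndufs3, Ndufs7, Ndufs8, Ndufv1 and Ndufv2), 2, 0 and 0 were found in TetHighProg, 2, 5 and 5 in TetLowReg and 6, 0 and 4 in TetLowProg. Ndufv2 (ENSMUSG00000024099), which lies at chr17:66385633-66408634 on the minus strand (GRCm39), had 1, 0 and 0 counts in TetHighProg and 62948, 2150 and 526 in TetLowReg. All TetLowReg libraries were higher, and 1 of them held nearly all of the counts. The fitted log2 fold change was 13.35 (SE 4.92, edgeR, adjusted p = 0.233) and 9.76 without TetLowReg 6, and the ratio of pooled counts per total was 71361.6, with a 95% counting interval of 12807.5 to 2818680. Such intervals cover counting error only. In TetLowProg Ndufv2 had 429, 0 and 6498 counts, which overlapped both other groups.

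Its flavoprotein partner Ndufv1, which holds the site where NADH is oxidized, had 3325 counts in TetLowProg 9 and 0 in every other library. Both genes were thus found together in 1 library only. None of the exon bases of Ndufv1 overlapped another gene of the tables. Ndufs3, another core subunit, was found in 6 libraries, with 23 to 1076 counts. Ndufs7 and Ndufs8, which carry iron-sulfur clusters, were at 0 in all TetHighProg libraries, in TetLowReg 6 and in TetLowProg 10. Ndufs8 had 3034 and 4145 counts in TetLowReg 7 and 8 and 3235 and 11684 in TetLowProg 9 and 12. Ndufs1, the largest core subunit, had 13533 counts in TetHighProg 1 but 2 and 0 in the other TetHighProg libraries.

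Among the accessory subunits, Ndufb7 had the highest mean level per kilobase of transcript (364 CPM per kb over 9 libraries, CPM being counts per 1000000 gene counts), with 37918 counts in TetHighProg 2. Without that library its mean was 109 CPM per kb, the 27th highest among members. Ndufa12 and Ndufb11 were found in 7 libraries each, and 67.8% of the exon bases of Ndufb11 overlapped other genes. Ndufab1, the mitochondrial acyl carrier protein, was found in 4 libraries, all gene-rich and of low avidity, with 399 to 964 counts. Ndufa4, first described in complex I and now placed in complex IV, was counted in complex I by its name. It had 11643 counts in TetHighProg 5, 3307 to 5499 in the gene-rich low avidity libraries and 0 in all gene-poor libraries. Ndufa4l2, a hypoxia-induced relative of Ndufa4, and Ndufb11b were at 0 in all 9 libraries.

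Ndufa2 and Ndufa7, accessory subunits of complex I, were at 0 in all TetHighProg libraries and present in all TetLowProg libraries. Ndufa2 had 3365, 13898 and 17498 counts in TetLowProg and 0, 3158 and 1284 in TetLowReg. TetLowProg was higher than both other groups without overlap, with log2 fold changes of 12.37 (SE 4.93, edgeR adjusted p = 0.193) against TetHighProg and 2.22 (SE 3.94, adjusted p = 1.0) against TetLowReg. Pooled counts were at least 10146.5-fold higher in TetLowProg than in TetHighProg, where TetHighProg was given 3 counts over the group as its limit. Ndufa7 had 1913, 2776 and 1165 counts in TetLowProg and 0, 473 and 593 in TetLowReg. Its pooled counts were at least 1709-fold higher in TetLowProg than in TetHighProg (log2 fold change 9.68, SE 4.76, edgeR adjusted p = 0.193), and 4.42-fold higher than in TetLowReg (log2 fold change 1.44, SE 4.36, adjusted p = 1.0).

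Ndufb6 and Ndufb11 were also higher in all TetLowProg than in all TetLowReg libraries. Ndufb6 had 972, 12981 and 1541 counts in TetLowProg against 0, 789 and 276 in TetLowReg (log2 fold change 3.30, SE 4.60, edgeR adjusted p = 1.0). Ndufb11 had 5090, 19927 and 3995 counts in TetLowProg against 0, 2875 and 1091 in TetLowReg (log2 fold change 2.19, SE 3.67, edgeR adjusted p = 1.0). Without TetLowProg 10 the log2 fold changes were 0.71 for Ndufb6, 0.49 for Ndufb11, 0.58 for Ndufa7 and 1.88 for Ndufa2. With mitochondrially encoded genes left out of the total, all 4 of these complex I genes overlapped between TetLowProg and TetLowReg. In each of them TetLowReg 6 was at 0, and 3 of the 4 were highest in TetLowProg 10 when set against its total. Of the bases of Ndufb6, 39.6% overlapped another gene.

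The 8 assembly factors of complex I were sparse except for Ndufaf4. Ndufaf4 had 30602, 139448 and 0 counts in TetHighProg, 0, 92 and 2647 in TetLowReg and 2904, 2 and 19 in TetLowProg. It made up 28.4% of all member counts in TetHighProg 2, and the groups overlapped because TetHighProg 5 was at 0. DESeq2 with poscounts factors called it lower in both low avidity groups than in TetHighProg. Ndufaf8 was found in 5 libraries, all gene-rich, with 328 to 2251 counts, Ndufaf3, Ndufaf5 and Ndufaf7 in 2 each, Ndufaf1 and Ndufaf6 in 1 each and Ndufaf2 in none.

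**Figure D5:**
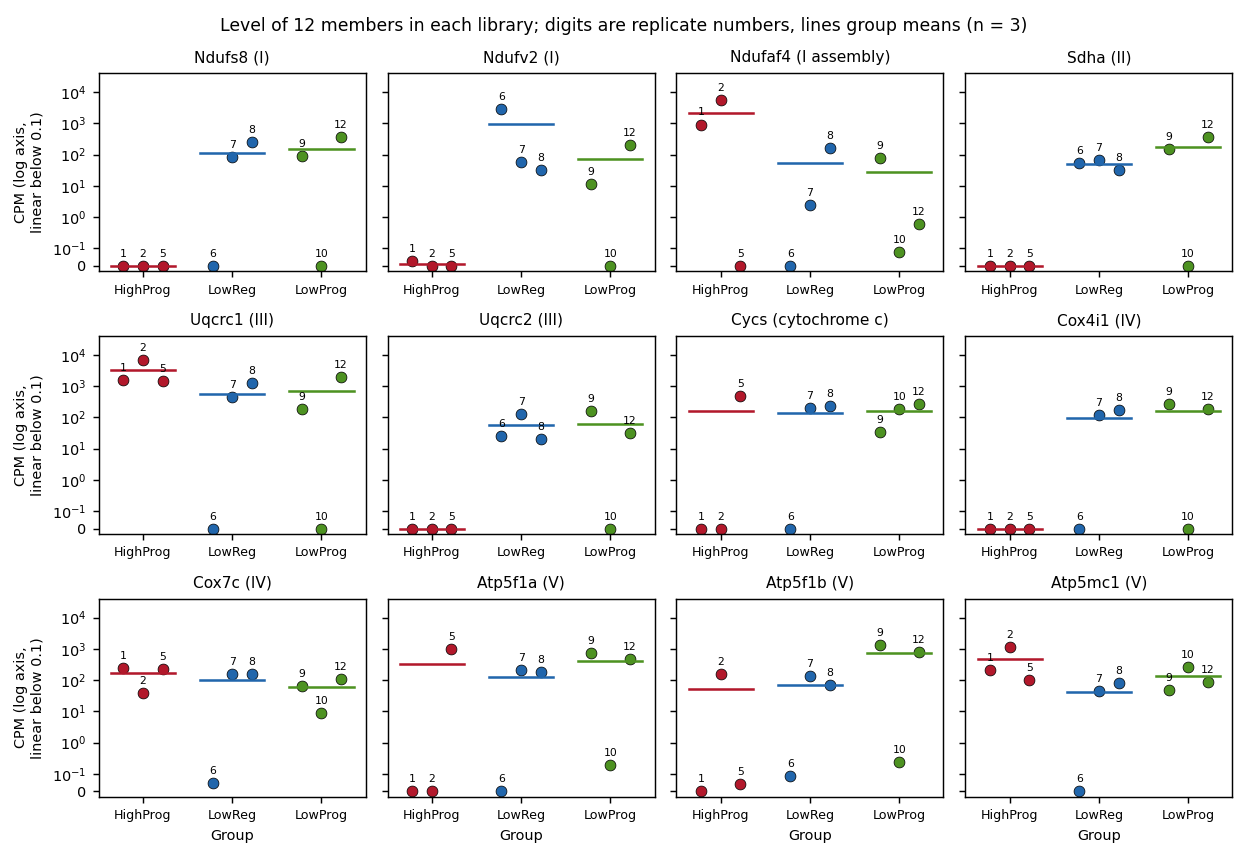
Counts per 1000000 gene counts (CPM, log axis, linear below 0.1) of 12 members in each library, colored by group, with replicate numbers and group means (n = 3). Sdha and Uqcrc2 sit at 0 in all TetHighProg libraries and above 0 in all TetLowReg libraries, Uqcrc1 is lower in each TetLowReg than in each TetHighProg library, and most other genes show both zeros and high values within a group.

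Complex II, succinate dehydrogenase, links the citric acid cycle to the chain through the flavoprotein Sdha, the iron-sulfur subunit Sdhb and the membrane anchors Sdhc and Sdhd. None of its genes was found in TetHighProg, in which the 4 together had 0, 2 and 1 counts. Not found in any TetHighProg library were 48 of the 98 members, against 16 in TetLowReg and 10 in TetLowProg. Of the 4 genes, 1, 3 and 3 were found in TetLowReg and 3, 0 and 3 in TetLowProg. The share of gene counts was 0.00525%, 0.0182% and 0.0135% in TetLowReg and 0.0358%, 0% and 0.0505% in TetLowProg. TetLowReg exceeded TetHighProg in every library, whereas TetLowProg 10 was at 0 like TetHighProg 1.

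Sdha (ENSMUSG00000021577), at chr13:74469359-74498436 on the minus strand (GRCm39), was the only complex II gene found in TetLowReg 6. It had 0 counts in each TetHighProg library and 1157, 2416 and 543 in TetLowReg, at least 1492-fold higher in pooled counts. The log2 fold change was 9.85 (SE 4.78, edgeR adjusted p = 0.233). DESeq2 with default and poscounts factors and limma-voom called it, among 10 members that all of them called. The shares over all genes were 32.8%, 24.0% and 41.5%. As Sdha was at 0 throughout TetHighProg, it passed the filter only through the low avidity groups. In TetLowProg Sdha had 5479, 0 and 11302 counts. Sdhb had 3398 and 1554 counts in TetLowReg 7 and 8 and 4142 and 3781 in TetLowProg 9 and 12, and at most 2 counts elsewhere. Relative to library totals it differed by 1.29-fold among those 4 libraries. Sdhc was found in TetLowReg 8 and TetLowProg 9 and Sdhd in TetLowReg 7 and TetLowProg 12, so no library held all 4 genes.

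Complex III, the cytochrome bc1 complex, is built on the core proteins Uqcrc1 and Uqcrc2, with the Rieske protein Uqcrfs1 and cytochrome c1 (Cyc1) as its nuclear-encoded redox subunits. Of its 9 members 3, 1 and 5 were found in TetHighProg, 2, 9 and 8 in TetLowReg and 9, 2 and 8 in TetLowProg. The complex took 0.197%, 0.690% and 0.203% of gene counts in TetHighProg and 0.121%, 0.104% and 0.187% in TetLowReg. With mitochondrially encoded genes left out of the total, TetLowReg 8 was at 0.214%, above the 0.207% and 0.208% of TetHighProg 1 and 5, and the groups overlapped. In TetLowProg the complex took 0.110%, 0.00936% and 0.258%. Uqcrc1 accounted for 69.4% to 100% of the complex's counts in TetHighProg.

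Uqcrc1 (ENSMUSG00000025651), at chr9:108765701-108778710 on the plus strand (GRCm39), had the highest mean level per kilobase of all members over the 9 libraries, at 924 CPM per kb. It had 53211, 174776 and 32020 counts in TetHighProg, 0, 16878 and 20454 in TetLowReg and 6694, 0 and 61406 in TetLowProg. Relative to totals all TetHighProg libraries were higher than all TetLowReg libraries, 6.40-fold in pooled counts, while TetLowProg overlapped both. The log2 fold change of TetLowReg against TetHighProg was −2.69 (SE 2.39, edgeR adjusted p = 0.493). It was −0.93 without TetHighProg 2 and −0.13 in the gene-rich libraries alone. Without TetHighProg 2 the mean level was 518 CPM per kb, below the 629 of Uqcr10.

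Uqcrc2 showed the opposite order. It had 0 counts in each TetHighProg library, 546, 4524 and 328 in TetLowReg and 5606, 0 and 1004 in TetLowProg. Pooled counts were at least 1957-fold higher in TetLowReg than in TetHighProg (log2 fold change 10.24, SE 4.98, edgeR adjusted p = 0.233). The proteins form 1 core, yet per kilobase Uqcrc1 exceeded Uqcrc2 by 1.68-fold in TetLowProg 9, 5.24-fold in TetLowReg 7, 85.9-fold in TetLowProg 12 and 87.6-fold in TetLowReg 8. In 4 other libraries 1 of the pair was found without the other. Of the bases of Uqcrc2, 21.8% overlapped another gene.

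Uqcr10, a small subunit, had 0, 0 and 3793 counts in TetHighProg and 26216, 7354 and 3666 in TetLowReg, higher in each TetLowReg library relative to totals. Its log2 fold change was 3.54 (SE 3.84, edgeR adjusted p = 0.610), and pooled counts differed 10.7-fold. The fitted value was 13.02 without TetHighProg 5, 2.73 without TetLowReg 6 and 1.07 in the gene-rich libraries alone. Among the gene-rich low avidity libraries Uqcr10 was the steadiest member, varying 1.26-fold. Uqcrfs1 was found in 6 libraries with 928 to 6204 counts. Cyc1 was found in 3, with 659 counts in TetHighProg 1, 758 in TetLowReg 7 and 1374 in TetLowProg 9. Cycs, the soluble carrier, had 10693 counts in TetHighProg 5, 7479 and 3670 in TetLowReg 7 and 8 and 1240, 4584 and 8410 in TetLowProg, and 0 in TetHighProg 1 and 2 and TetLowReg 6.

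Complex IV, cytochrome c oxidase, has a catalytic center encoded in mitochondrial DNA and nuclear subunits around it, several of which exist in a widely used and a tissue-restricted form. Of its 19 members 3, 3 and 6 were found in TetHighProg, 1, 12 and 11 in TetLowReg and 13, 2 and 12 in TetLowProg. It took 0.0241%, 0.190% and 0.0738% of gene counts in TetHighProg, 0.0652%, 0.0704% and 0.0727% in TetLowReg and 0.156%, 0.0596% and 0.0755% in TetLowProg. Within the gene-poor libraries single genes made up the complex. Cox7c held 99.6% of its counts in TetHighProg 1, Cox7a2l, a factor of respiratory supercomplexes, 93.0% in TetHighProg 2, Cox7a2 nearly 100% in TetLowReg 6 and Cox6a1 98.5% in TetLowProg 10.

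Cox4i1, the largest nuclear subunit, was found in the 4 gene-rich low avidity libraries alone, with 4356, 2753, 9979 and 5994 counts. It was at 0 in the other 5, TetHighProg 5 among them, which held fewer found genes (3181) than the other gene-rich libraries (6443 or more). Cox5b followed the same division, with 1880, 400, 2643 and 1883 counts. Cox5a had in addition 3700 counts in TetHighProg 5. Cox7c, found in 8 libraries, had 8025, 1007 and 5250 counts in TetHighProg, 1, 5818 and 2499 in TetLowReg and 2363, 228 and 3471 in TetLowProg.

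Cox6a1 had 18, 0 and 0 counts in TetHighProg, 5, 1048 and 1544 in TetLowReg and 4726, 14748 and 4972 in TetLowProg. TetLowProg was higher than both other groups in every library. The log2 fold change was 10.02 against TetHighProg (SE 5.76, edgeR adjusted p = 0.217; pooled ratio 1189) and 2.32 against TetLowReg (SE 4.21, adjusted p = 1.0; pooled ratio 7.58), and the latter was 1.07 without TetLowProg 10. Cox7b had 0 counts in each TetHighProg library, 5431, 1 and 1031 in TetLowProg and 0, 2237 and 299 in TetLowReg. Its pooled counts were at least 1886.5-fold higher in TetLowProg than in TetHighProg (log2 fold change 9.20, SE 4.61, edgeR adjusted p = 0.193), although TetLowProg 10 had a single count.

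Tissue-restricted forms of complex IV subunits had few or no counts. Cox4i2, Cox8b and Cox8c were at 0 in all libraries and Cox7b2 had 2 counts in 1 library. Cox6a2, the form of heart and skeletal muscle, was found in TetLowReg 8 alone (196 counts), Cox6b2, the testis form, in TetLowProg 9 alone (360 counts), and Cox7a1, a form of muscle and brown fat, in TetLowProg 12 alone (245 counts). The 7 restricted forms together had at most 360 counts in a library, while their 6 widely used counterparts (Cox4i1, Cox6a1, Cox6b1, Cox7a2, Cox7b and Cox8a) together had 18 to 36780. Cox8a, the only widely used form among the Cox8 genes, was found in TetLowReg 7 (726 counts) and TetLowProg 9 (8441 counts) and was at 0 in the other libraries. Cox5b-ps, annotated as protein coding despite its pseudogene name, had at most 21 counts, and reads of such a near copy of Cox5b may be misassigned.

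Complex V makes ATP in its F1 head (Atp5f1a to Atp5f1e), driven by the rotating c-ring (Atp5mc1, Atp5mc2 and Atp5mc3). Of its 18 members 4, 4 and 10 were found in TetHighProg, 3, 15 and 15 in TetLowReg and 18, 3 and 17 in TetLowProg. It took 0.187%, 0.204% and 0.232% of gene counts in TetHighProg, 0.333%, 0.131% and 0.116% in TetLowReg and 0.422%, 0.0893% and 0.232% in TetLowProg. The groups overlapped.

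The 5 genes of the F1 head were seldom found together. In TetHighProg 0, 1 and 1 of them were found, in TetLowReg 0, 4 and 5 and in TetLowProg 5, 0 and 5. Atp5f1a and Atp5f1b encode the alternating subunits of the head. Atp5f1a had 22863 counts in TetHighProg 5, in which Atp5f1b had 1, and Atp5f1b had 3902 in TetHighProg 2, in which Atp5f1a had 0. In the 4 gene-rich low avidity libraries both were found, and the level of Atp5f1a per kilobase was 1.19 and 1.94 times that of Atp5f1b in TetLowReg 7 and 8 and 0.423 and 0.450 times in TetLowProg 9 and 12. Atp5f1b was highest in TetLowProg 9, with 49107 counts.

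Atp5f1c, the central stalk subunit, had 4, 0 and 0 counts in TetHighProg, 0, 1903 and 940 in TetLowReg and 18152, 7 and 27 in TetLowProg. TetLowProg was above TetHighProg in each library, at a log2 fold change of 9.86 (SE 5.83, edgeR adjusted p = 0.229), but a single library held the counts and the fitted value was 2.48 when it was left out. Atp5me had 16138, 745 and 362 counts in TetLowReg, whereas TetHighProg had 0, 0 and 58 (log2 fold change 8.19, SE 5.63, edgeR adjusted p = 0.329, pooled ratio 323), and the fitted value was 5.31 without TetLowReg 6.

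The 3 c-ring genes encode the same mature protein. Atp5mc1 was found in 8 libraries, with 6861, 28205 and 2221 counts in TetHighProg, 0, 1636 and 1294 in TetLowReg and 1719, 6591 and 2774 in TetLowProg. TetHighProg was higher than TetLowReg in every library, 11.7-fold in pooled counts, with a log2 fold change of TetLowReg against TetHighProg of −3.69 (SE 3.68, edgeR adjusted p = 0.561). It was −1.42 without TetHighProg 2 and −0.01 in the gene-rich libraries alone. Atp5mc1 held 99.9% to 100% of the c-ring counts in TetHighProg, TetLowReg 7 and TetLowProg 10, but 63.8% in TetLowReg 8, 62.6% in TetLowProg 12 and 27.0% in TetLowProg 9. Atp5mc3 filled most of the rest, with 735, 1658 and 4041 counts, and Atp5mc2 was found in TetLowProg 9 alone (602 counts). Atp5if1, which inhibits ATP hydrolysis by the synthase, had 20928, 6994 and 2620 counts in TetHighProg, 0, 4708 and 1 in TetLowReg and 1329, 0 and 4051 in TetLowProg, and 59.6% of its bases overlapped other genes. Atp5mk and Atp5pf were found in 8 libraries each. Other genes overlapped all bases of the canonical transcript of the former and 46.4% of those of the latter. Reads on overlapping genes are left out of the counts, and the source of the Atp5mk counts was not tested.

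Across the 4 gene-rich low avidity libraries, 61 members were found in each. The highest level of a member relative to totals was a median of 4.64 times its lowest, from 1.26 times for Uqcr10 to 1216 times for Atp5f1d. For 3014 other protein coding genes found in the same libraries the median was 12.6. The sets were not matched for level. In these libraries the median CPM was 44.0 to 78.5 over found members and 9.22 to 53.6 over found protein coding genes. The medians were alike for complexes I (4.64, 25 genes), III (5.26, 8 genes), IV (4.51, 10 genes) and V (4.08, 13 genes). No test was made of these values.

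Other genes of the pathway were counted by list, and edgeR called 0 of the 44 tested in each comparison. DESeq2 called 13 of 40 higher in TetLowReg and 20 of 41 higher in TetLowProg than in TetHighProg, or 6 and 8 of 35 with poscounts factors, and limma-voom 22 and 18 of 44. The shares over all genes were 32.8% and 40.7% with DESeq2, 24.0% and 20.2% with poscounts factors, and 41.5% and 49.9% with limma-voom. None of them called one lower, or any in TetLowProg against TetLowReg. At an unadjusted edgeR p under 0.05, to which the counts of each list below refer, the shares over all genes were 19.5% for TetLowReg and 25.4% for TetLowProg against TetHighProg, and 0.929% for TetLowProg against TetLowReg. Of the 13 mitochondrially encoded subunits 7 were tested. Their summed counts were 1.06 to 6.27 times those of the 98 nuclear members in TetHighProg, 1.09, 73.9 and 19.7 times in TetLowReg and 1.14 to 4.66 times in TetLowProg. In TetLowReg 7 mt-Cytb, the mitochondrially encoded subunit of complex III, alone took 40.2% of all gene counts. mt-Co2, mt-Atp6, mt-Atp8, mt-Nd3 and mt-Nd4l were at 0 in all libraries, and mt-Co3 had 1 count in all. Of the 7 tested, 1 mitochondrially encoded gene was higher in TetLowReg than in TetHighProg, 0 passed in TetLowProg against TetHighProg, and 1 was lower in TetLowProg than in TetLowReg.

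Of 37 further assembly factors 20 were tested, and 5 (25%) were higher in each comparison with TetHighProg and 1 in TetLowProg than in TetLowReg. Timmdc1, an assembly factor of complex I, was found in all 9 libraries, with 1025 to 38822 counts. Of 10 coenzyme Q synthesis genes 4 were tested, with 2 higher in each comparison with TetHighProg. Of 6 carriers and porins 5 were tested, with 1 and 2 higher in TetLowReg and TetLowProg, respectively, than in TetHighProg. Slc25a5, an ADP/ATP carrier, had 127619, 1 and 61190 counts in TetHighProg, 48130, 69615 and 30283 in TetLowReg and 23844, 66240 and 88292 in TetLowProg, while its relative Slc25a4 was found in 4 libraries.

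Of 13 regulators of mitochondrial biogenesis 8 to 10 were found in each of the gene-rich low avidity libraries, 4 in TetHighProg 5 and at most 2 in a gene-poor library. Of the 13, 8 were tested, and 3 were higher in TetLowReg than in TetHighProg, while 0 passed in TetLowProg against TetHighProg. Ppargc1a, the coactivator PGC-1α, had 43 counts in TetLowReg 7 and at most 5 in the other libraries. Ppargc1b was found in TetLowReg 7 (19 counts) and TetLowProg 9 (3439 counts). Tfam, which packages and transcribes mitochondrial DNA, was found in TetLowReg 7 and 8 and TetLowProg 9, with 1722, 54 and 377 counts. Nrf1 was found in 5 libraries, all of low avidity, with 53 to 1612 counts, and had 2 counts in TetHighProg 5 and 0 in the other TetHighProg libraries. Gabpa was found in 3 libraries and Esrra in 1, TetLowProg 9. At these levels a value of 0 in a library does not show that the gene was off in the cells.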

How the data were processed

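RNA of 9 libraries was sequenced from amplified full-length cDNA. Per the labels, the authors aligned reads to GRCm39 (also listed as mm39) with STAR 2.7.6a. Their methods name featureCounts, whereas the deposited tables have the layout of STAR's gene counts. The release of the annotation is not given in the sources used here. The deposited values are raw counts per gene, without normalization, in which reads at several places or on overlapping genes are left out. The unstranded column was used (50.2% to 50.8% of stranded reads fell on one strand), and the summary lines were left out (unmapped reads 5.02% to 10.4%, multimapping 7.51% to 14.5%, ambiguous 1.05% to 1.96%, no gene 18.5% to 41.3%). A short exon that overlaps another gene loses reads in such counts. Names, lengths and exon overlaps came from GENCODE M39, to which 28645 of 32976 genes matched. Overlap was counted on either strand, and exon bases of a member are those of its canonical transcript. Exons of 35 members share bases with another gene, 20 of them over 20% of their length.

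Genes were tested with edgeR 4.0.16 in R 4.3.3 (quasi-likelihood, TMM factors, default filter, prior count 2, all groups in 1 model, two-sided). The SE of a log2 fold change was derived as its absolute value divided by the square root of the quasi-likelihood F statistic. Single values were compared with exact permutation tests. Pooled ratios divide summed counts by summed totals. Alternatives were DESeq2 1.42.0 (default and poscounts size factors), limma 3.58.1 (voom with quality weights), other filters and scalings, other minimum counts, thinned counts and left-out libraries. The tests were tested on simulated data. Groups came from the sample titles. Named genes were fixed core subunits, isoform pairs and c-ring genes, the most abundant and most widely found member of each complex, regulators and ADP/ATP carriers, and up to 5 members per comparison with the largest fitted change among those whose libraries did not overlap between groups. The genes Ndufa4l2, Ndufb11b, Uqcr10, Cox5b-ps, Atp5f1d, Timmdc1, the single assembly factors and the single mitochondrially encoded genes were named after their values were seen. 1 member is counted in the totals and not reported here by name. Mean levels without TetHighProg 2 and totals without mitochondrially encoded genes were alternatives chosen after seeing the data. Atp5pf was also named after its values were seen. Members and lists were chosen with earlier results of these data known. Python 3.11.15, NumPy 2.4.6, pandas 2.3.3, SciPy 1.17.1 and matplotlib 3.10.9 were used.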

Additional observations from a re-analysis of the deposited data

How the results depend on the processing

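By edgeR 0 members were called with no filter, with a strict filter, with library size in place of TMM factors, within 2 groups alone, without a fold threshold and without each library in turn (0 to 0). In the gene-rich libraries alone 0 were called as well, but TetHighProg then held 1 library, assumed to vary like the other groups. Members called rose from 0 to 21 (DESeq2, default size factors), 12 (poscounts factors) and 40 (limma-voom with quality weights) for TetLowReg against TetHighProg, and to 26, 9 and 44 for TetLowProg against TetHighProg, while calls over all genes rose from 0% to 32.8%, 24.0% and 41.5%, and to 40.7%, 20.2% and 49.9%. The cause was not tested. The difference in members found was 28, 34.3 and 6.33 for TetLowReg against TetHighProg, TetLowProg against TetHighProg and TetLowProg against TetLowReg, and without each library in turn it ranged from 16.3 to 48.8, 20.3 to 56.8 and −14.5 to 28.8. The difference in the members' share of counts, in percentage points, was −0.461, −0.323 and 0.138 in that order, ranged from −0.672 to −0.0867, −0.534 to 0.0515 (above 0 without TetHighProg 2) and −0.00619 to 0.367 (below 0 without TetLowProg 12, and −0.0093 with mitochondrially encoded genes left out of the total), and in the gene-rich libraries alone was 0.233 for TetLowProg against TetHighProg and 0.482 for TetLowProg against TetLowReg. The median log2 fold change of members ranged from 0.24 (without TetLowReg 7) to 7.22 (without TetHighProg 5), 0.80 (without TetLowProg 9) to 7.87 (without TetHighProg 5) and −0.71 (without TetLowReg 6) to 1.10 (without TetLowReg 7). With poscounts size factors in edgeR it was −0.004 for TetLowProg against TetHighProg, beside 3.17 over all genes, and with ratio size factors 0.91 for TetLowProg against TetLowReg, beside 1.41. With mitochondrially encoded genes left out of the total, members without overlap between TetLowProg and TetLowReg fell from 5 to 2. No paired analysis was possible because the groups share no replicate numbers and the labels do not tie libraries to the progressing tumors that TetHighProg and TetLowProg share. The other recomputed values, 97 of these summaries, 32 medians and 214 values of single genes, stayed within the spread or on the same side of the threshold, while 20 values of single genes passed the threshold, all with DESeq2 or limma-voom. With 3 libraries a group and 4 of the 9 libraries gene-poor, a count of 0 shows that a gene was not detectable in that library, not that it was absent from the cells.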
